A study of Danio rerio with 36 samples.

Results

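The genes mcm3 (ENSDARG00000024204), mcm4 (ENSDARG00000040041) and pcna (ENSDARG00000054155), which copy DNA in dividing cells, were followed through larval zebrafish exposed to bisphenol A (BPA) or its brominated derivative tetrabromobisphenol A (TBBPA). They were chosen by gene identifier and are 3 of the 25856 genes in the BPA table and of the 26639 in the TBBPA table, and each had 1 entry in both tables. The choice was made with results of these data known, and which of their values led to it is not recorded. Their values are therefore given as a description, with standard errors and without a test.

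Mcm3 and Mcm4 are subunits of the MCM2-7 helicase, a ring that is loaded onto replication origins in G1 phase and unwinds the DNA in S phase. Pcna is the sliding clamp that holds the replicative polymerases on their template and also serves DNA repair. In cultured and developing animal cells, transcripts of all of these genes are made mostly in proliferating cells, under E2F transcription factors, so that their level in a whole animal is widely used as a readout of proliferation.

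RNA was sequenced from pools of 20 whole larvae (AB/Tub hybrids) exposed for 48 h, from 72 to 120 hpf, to 1 chemical. By the paper, phenotypically normal larvae were chosen for the pools. Each chemical was given at its EC20 (48.3 µM BPA or 2.92 µM TBBPA) and at 4 lower concentrations in 10-fold steps, and had a carrier control (CC) of its own, so that BPA larvae received 0.00483, 0.0483, 0.483, 4.83 or 48.3 µM and TBBPA larvae 0.000292, 0.00292, 0.0292, 0.292 or 2.92 µM. The CC is taken here as DMSO (0.5% of the medium), although the control labels put the name of the test chemical in its place. Every group was sampled 3 times, each time from another clutch, for 36 libraries (18 with each chemical). Reads assigned to genes numbered 6056692 to 16520859 in a BPA library and 7865327 to 11478099 in a TBBPA library. Values are normalized counts, that is, reads of a gene divided by the library's DESeq2 size factor. The series were normalized separately and gene lengths were not used, so levels are compared neither between the series nor between genes. Replicate 3 of 4.83 µM BPA stood apart from the other 17 BPA libraries on the first principal component (score 125, with 38.6% of the variance). The changes of the 3 genes at that concentration, the replication list median there and the correlations are given with and without it. Of the remaining BPA libraries below the EC20, the CC library of replicate 2 scored 16.1 and the rest −27.6 to −13.1. That CC library enters every BPA comparison with the CC. In the TBBPA series, replicate 2 of 0.000292 µM had the lowest score on the second principal component (−37.7, with 11.9% of the variance). The changes of the 3 genes at 0.000292 µM TBBPA are likewise given with and without that library. In whole larvae, a change in the number of dividing cells and a change in the RNA made per cell cannot be told apart.

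All 3 genes were higher at the EC20 of both chemicals than in the CC, in 3 of 3 replicate pairs and with no overlap between the groups. At 2.92 µM TBBPA, mcm3 was 1.52-fold, mcm4 1.40-fold and pcna 1.37-fold the CC level in the fitted model. With 48.3 µM BPA the same folds were 1.27, 1.29 and 1.26. At the lower concentrations the fitted changes lay between −0.32 and 0.23 on the log2 scale for BPA and between −0.20 and 0.19 for TBBPA. The value of 0.23 was that of pcna at 4.83 µM BPA, which was 0.02 without replicate 3 of that group. Without replicate 2 of 0.000292 µM TBBPA, the change of mcm3 at that concentration was 0.26. Every library of 1 group exceeded every CC library in 18% of the 17248 genes tested at 48.3 µM BPA and in 10.5% of the 18400 tested at 2.92 µM TBBPA, so this separation by itself is common at the EC20. No such share is given for EC20 libraries above all other libraries of their series, a separation described gene by gene below.

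**Figure D1:**
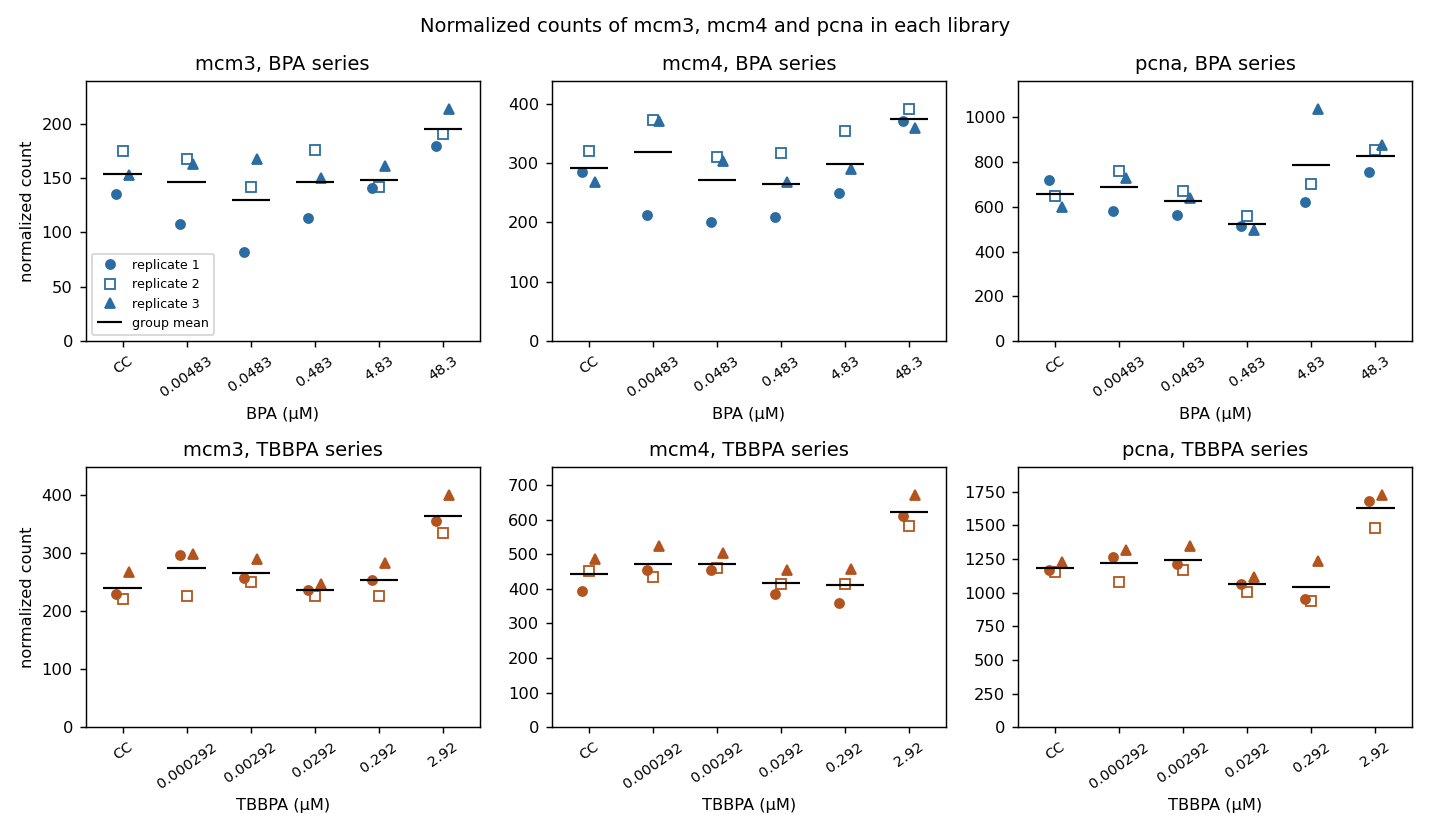
Normalized counts of mcm3, mcm4 and pcna (y axis, from 0) in each of the 36 libraries, by concentration in µM (x axis), with 1 symbol per replicate and a bar at the group mean. With TBBPA, the 3 libraries given 2.92 µM sit above the other 15 for each gene, whereas in the BPA series this holds for mcm3 only. The share of all genes separated in this way is not given.

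For mcm3 in the BPA series, the CC held 135, 174 and 153 normalized counts in replicates 1, 2 and 3, and the EC20 held 179.8, 191 and 213. These values came to 154 ± 19.8 in the CC and 195 ± 17.2 at the EC20 (mean ± SD, n = 3). Each of the 3 EC20 libraries was above all 15 others, the nearest being replicate 2 of 0.483 µM at 176, and the fitted log2 fold change was 0.34 ± 0.17 (SE). The lower concentrations gave 108, 168 and 162 at 0.00483 µM and 81.6, 142 and 167 at 0.0483 µM. They gave 113, 176 and 150.1 at 0.483 µM and 141, 141 and 161 at 4.83 µM. Each of these 4 groups overlapped with the CC, with log2 fold changes of −0.10, −0.30, −0.09 and −0.05 (SE 0.17 each), the last of which was −0.04 ± 0.19 without the library that stood apart. In the order of the group means, the EC20 was separate from the CC, which came next, and below it each group overlapped with its neighbor down to 0.0483 µM at 130.2 ± 43.9. Replicate 1 was the lowest library in 6 of 6 groups. Below the EC20 its mcm3 level averaged 116 over 5 libraries, against 160.2 in replicate 2 and 159 in replicate 3. Between 64 and 365 reads lay on mcm3 in a BPA library, the fewest of the 3 genes.

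For mcm3 in the TBBPA series, the CC held 229, 221 and 267 normalized counts and the EC20 held 355, 335 and 399.7. The means were 239 ± 24.6 and 363 ± 33.0 (SD, n = 3). The fitted log2 fold change of 0.60 ± 0.08 (SE) was the largest of the 3 genes in either series, and the replicate pairs gave 0.63, 0.60 and 0.58. The lower concentrations gave 296, 227 and 298 at 0.000292 µM and 256, 249.7 and 289.8 at 0.00292 µM. They gave 236, 225 and 246 at 0.0292 µM and 253, 227 and 283 at 0.292 µM. Every EC20 library was above these 12 and the CC, and the highest of the 15 was 298. The 4 lower groups overlapped with the CC, with log2 fold changes of 0.19, 0.15, −0.02 and 0.09 (SE 0.08 each). Without replicate 2 of 0.000292 µM, the change there was 0.26 ± 0.08. At 0.000292, 0.00292 and 0.292 µM, mcm3 was higher than in the CC in 3 of 3 replicate pairs. These pairs reuse the same 3 CC libraries, and the share of all genes with such pairs is not given. No group below the EC20 was separate from its neighbor in the order of means, which ran from 273 ± 40.6 at 0.000292 µM to 236 ± 10.5 at 0.0292 µM.

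For mcm4 in the BPA series, the CC held 285, 321 and 267 normalized counts and the EC20 held 372, 391 and 359. The means were 291 ± 27.3 and 374 ± 16.5 (SD, n = 3), and the log2 fold change was 0.36 ± 0.15 (SE). All 3 EC20 libraries were above the CC, but not above the whole series: replicates 2 and 3 of 0.00483 µM held 373 and 372 and lay among them. The replicate 1 library of that group held only 212, so that its mean of 319 had an SD of 92.6. The other lower concentrations gave 200.2, 309.9 and 303 at 0.0483 µM and 209, 318 and 268 at 0.483 µM. At 4.83 µM the libraries held 250.0, 354 and 289.5. From the lowest concentration up, the 4 log2 fold changes were 0.09, −0.12, −0.15 and 0.02 (SE 0.15 each), all groups overlapped with the CC, and each group in the order of means overlapped with the next. Without the library that stood apart the change at 4.83 µM was 0.07 ± 0.17.

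For mcm4 in the TBBPA series, the CC held 393, 451 and 486 normalized counts and the EC20 held 610.4, 582 and 671. The means were 443 ± 46.5 and 621 ± 45.7 (SD, n = 3), and the log2 fold change was 0.49 ± 0.07 (SE). The EC20 libraries were above all 15 others, the highest of which was replicate 3 of 0.000292 µM at 523. The lower concentrations gave 456, 433 and 523 at 0.000292 µM and 453, 461 and 504 at 0.00292 µM. They gave 385, 414 and 453 at 0.0292 µM and 360.4, 413 and 456 at 0.292 µM. These groups overlapped with the CC, and their log2 fold changes were 0.09, 0.10, −0.08 and −0.11 (SE 0.07 each). Without replicate 2 of 0.000292 µM, the change there was 0.14 ± 0.07. At both 0.0292 and 0.292 µM, mcm4 was lower than in the CC of the same replicate in 3 of 3 pairs, by 0.03 to 0.13 on the log2 scale. Both comparisons use the same 3 CC libraries, and the share of all genes with such pairs is not given.

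For pcna in the BPA series, the CC held 722, 649 and 597 normalized counts and the EC20 held 753, 856 and 876. The means were 656 ± 62.5 and 829 ± 65.8 (SD, n = 3), and the log2 fold change was 0.34 ± 0.15 (SE). The replicate pairs were uneven, at 0.06, 0.40 and 0.55 on the log2 scale. The highest of the 18 libraries was no EC20 library but replicate 3 of 4.83 µM, the library that stood apart, at 1037.0, beside 623 and 703 in replicates 1 and 2. The log2 fold change at 4.83 µM was 0.23 ± 0.15 with that library and 0.02 ± 0.12 without it. At 0.483 µM the libraries held 515, 558 and 497, all below the CC, and the log2 fold change was −0.32 ± 0.15. At this concentration 3.68% of all genes tested lay below the CC in every library. The 2 lowest concentrations gave 581, 759 and 727 at 0.00483 µM and 561, 672 and 641 at 0.0483 µM, which overlapped with the CC (log2 fold changes of 0.07 and −0.07). In the order of means only the lowest group, 0.483 µM at 523 ± 31.2, was separate from its neighbor.

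For pcna in the TBBPA series, the CC held 1170.9, 1153.6 and 1227.2 normalized counts and the EC20 held 1679.3, 1476.9 and 1725.9. The means were 1183.9 ± 38.5 and 1627.4 ± 132 (SD, n = 3), and the log2 fold change was 0.46 ± 0.07 (SE). As for both helicase genes, all EC20 libraries were above the other 15, the highest of which held 1343.2. The lower concentrations gave 1261.5, 1075.8 and 1315.3 at 0.000292 µM and 1212.4, 1168.0 and 1343.2 at 0.00292 µM. Both groups overlapped with the CC (log2 fold changes of 0.04 and 0.07). Without replicate 2 of 0.000292 µM, the change there was 0.07 ± 0.07. At 0.0292 µM the libraries held 1064.6, 1007.3 and 1118.9, all below the CC (log2 fold change −0.16 ± 0.07), a separation found in 4.85% of the genes tested. At 0.292 µM they held 951, 936 and 1231.9 (−0.20 ± 0.07), and replicate 3 alone lay above the CC. The order of means thus had gaps above 0.00292 µM and between the CC and 0.0292 µM.

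**Figure D2:**
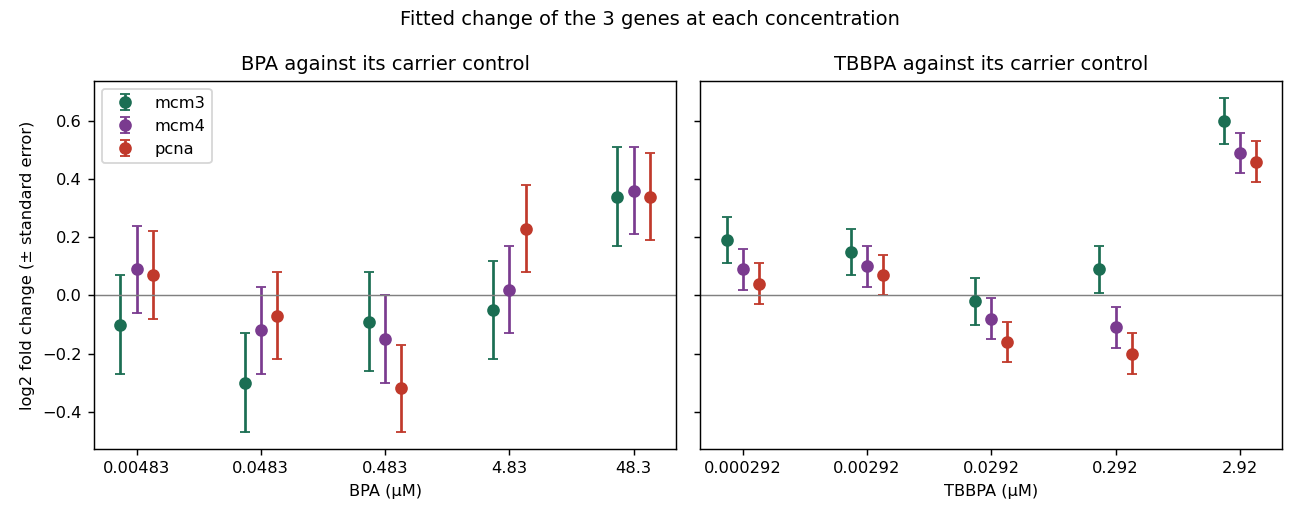
Fitted log2 fold change against the CC (y axis) of mcm3, mcm4 and pcna at each concentration in µM (x axis), with bars of 1 standard error. At the EC20 the points lie between 0.34 and 0.36 for BPA and between 0.46 and 0.60 for TBBPA, and at the lower concentrations they lie on both sides of 0.

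The remaining subunits of the MCM2-7 ring moved alongside in the TBBPA series, except for mcm7. At 2.92 µM TBBPA, mcm5 was higher by 0.56 ± 0.10 on the log2 scale (limma, Benjamini-Hochberg adjusted p = 0.00600), MCM6 (ENSDARG00000057683) by 0.46 ± 0.08 (adjusted p = 0.00605) and mcm2 by 0.43 ± 0.09 (adjusted p = 0.0149), in 3 of 3 replicate pairs each. These passed the adjusted p but not the 1.5-fold change that a differentially expressed gene (DEG) had to show here. An adjusted p under 0.05 with a rise of any size was found in 1.92% of the genes tested. The mcm7 gene held 578, 559.7 and 537 normalized counts in the CC and 631, 537 and 526 at the EC20 (0.01 ± 0.10, adjusted p = 0.961), and the groups overlapped. At 48.3 µM BPA, the log2 fold changes were 0.35 ± 0.20 for mcm5, 0.18 ± 0.21 for MCM6, 0.09 ± 0.18 for mcm7 and 0.06 ± 0.21 for mcm2, and none passed the test (limma, adjusted p between 0.247 and 0.887). In TBBPA larvae the adjusted p rose above 0.05 for mcm2, mcm5 and MCM6 without the replicate block, at 0.0885, 0.0707 and 0.0761. It did so too without replicate 2 or 3 for all 3 of these genes and without replicate 1 for mcm2, and the highest values were 0.203, 0.0707 and 0.144.

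**Figure D3:**
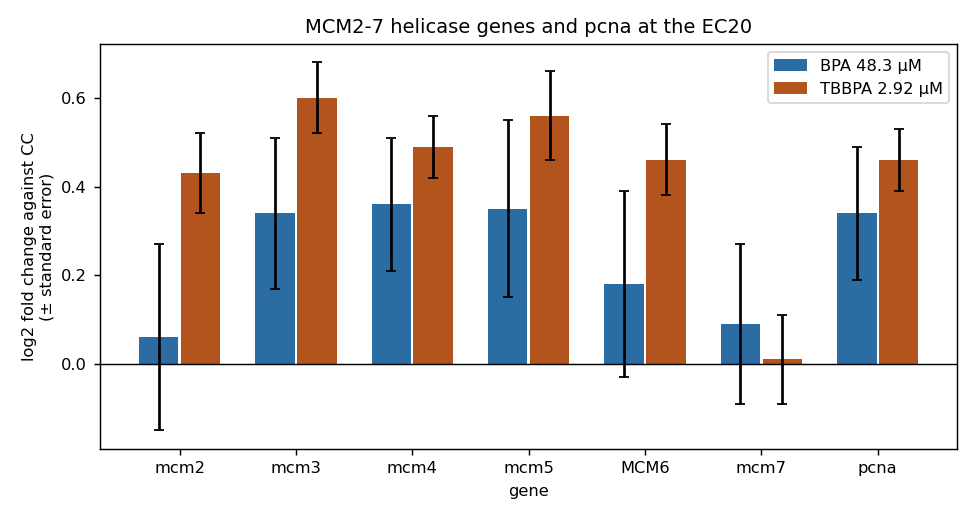
Fitted log2 fold change against the CC (y axis, bars from 0, with 1 standard error) of 6 genes of the MCM2-7 helicase and of pcna at 48.3 µM BPA and 2.92 µM TBBPA. The MCM6 gene shown is ENSDARG00000057683. In the TBBPA series mcm7 lies at 0.01 while the other 6 genes lie between 0.43 and 0.60.

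A list of 66 other replication genes, with the 3 genes left out, was read in the same libraries. At 2.92 µM TBBPA the fitted change was above 0 for 66 of 66 listed genes, with a median of 0.33 on the log2 scale, against 48.9% and −0.01 over all genes tested, and 36 of the 66 were above the CC in every library (10.5% of all genes). DEGs among them were orc4, of the origin recognition complex that loads the helicase, and uhrf1, which marks newly copied DNA for methylation. The CC libraries held 58.2, 58.8 and 53 normalized counts of orc4 and the EC20 libraries 90.9, 87.5 and 93.7 (log2 fold change 0.67 ± 0.16, limma adjusted p = 0.0247). For uhrf1 they held 257, 268 and 274 against 425, 364 and 488 (0.66 ± 0.10, adjusted p = 0.00325). Both groups of libraries were separate for both genes. Called higher were 2 of 66, beside 0.658% of all genes tested, and 0 of 66 were called lower, beside 0.201%. At an adjusted p under 0.05 with any size of change, 9 of the 66 rose (1.92% of all genes tested), among them mcm2, mcm5, MCM6, orc4 and uhrf1. The other 4, named here after their values were seen, were rpa1 (0.33 ± 0.07), which coats single-stranded DNA, and rrm1 (0.43 ± 0.10), RRM2 (ENSDARG00000078069, 0.51 ± 0.11) and tyms (0.51 ± 0.13), which make deoxynucleotides. Without replicate 3 the count of DEGs in the list was 0, and without replicate 1, without replicate 2, without the replicate block or with DESeq2 it was 1. The list, like the other lists below, was drawn up with results of these data known and shares its libraries with the 3 genes, so its counts are no independent evidence of their direction.

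In larvae given 48.3 µM BPA, 55 of the 66 replication genes had a fitted change above 0, with a median of 0.28, against 48.6% and −0.02 over all genes, and 20 were above the CC in every library (18% of all genes). DEGs were mcm10, which helps to activate the loaded helicase, orc2 of the origin recognition complex, and uhrf1. The mcm10 gene had few reads, with 7.72, 14.6 and 11.3 normalized counts in the CC and 20.6, 27.2 and 27.9 at the EC20 (log2 fold change 1.13 ± 0.35, limma adjusted p = 0.0343). For orc2 the CC held 30.9, 32.9 and 42.2 and the EC20 51.0, 70.6 and 80.2 (0.90 ± 0.27, adjusted p = 0.0320). For uhrf1 the values were 266, 195 and 231 against 362, 359 and 338 (0.62 ± 0.20, adjusted p = 0.0410). In each of the 3 the groups did not overlap. With 3 of 66 called higher and 0 called lower, the list was below the 7.07% of all genes called higher and the 6.93% called lower. The count was 0 without replicate 2 or without replicate 3, and 1 with no filter on low values. Over all genes the 2414 DEGs fell to 1217 without replicate 1 and 1169 without replicate 2.

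By role, the genes of nucleotide supply and chromatin copying had the largest median at the EC20 of both chemicals, at 0.39 over 14 genes for BPA and 0.36 over the same 14 for TBBPA. Helicase loading and activation had medians of 0.22 and 0.24 over 25 genes, and polymerases, clamp and clamp loader 0.19 and 0.33 over 27 genes. No test compared the roles. Within the last group, 0 of 27 were DEGs with either chemical by limma, edgeR or DESeq2, while 4 at 48.3 µM BPA and 17 at 2.92 µM TBBPA had an unadjusted p under 0.05 (30.9% and 19.8% of all genes tested). Gene by gene, the list ran from −0.70 to 1.13 for BPA and from 0.01 to 1.41 for TBBPA. The upper end for TBBPA was a second RRM2 gene (ENSDARG00000020711), named after its values were seen, with 5.94, 26.6 and 37.4 normalized counts in the CC and 30.0, 43.8 and 99.1 at the EC20, where the groups overlapped (limma adjusted p = 0.219). Reads of the 2 RRM2 genes could be shared if their sequences are close, which was not examined.

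**Figure D4:**
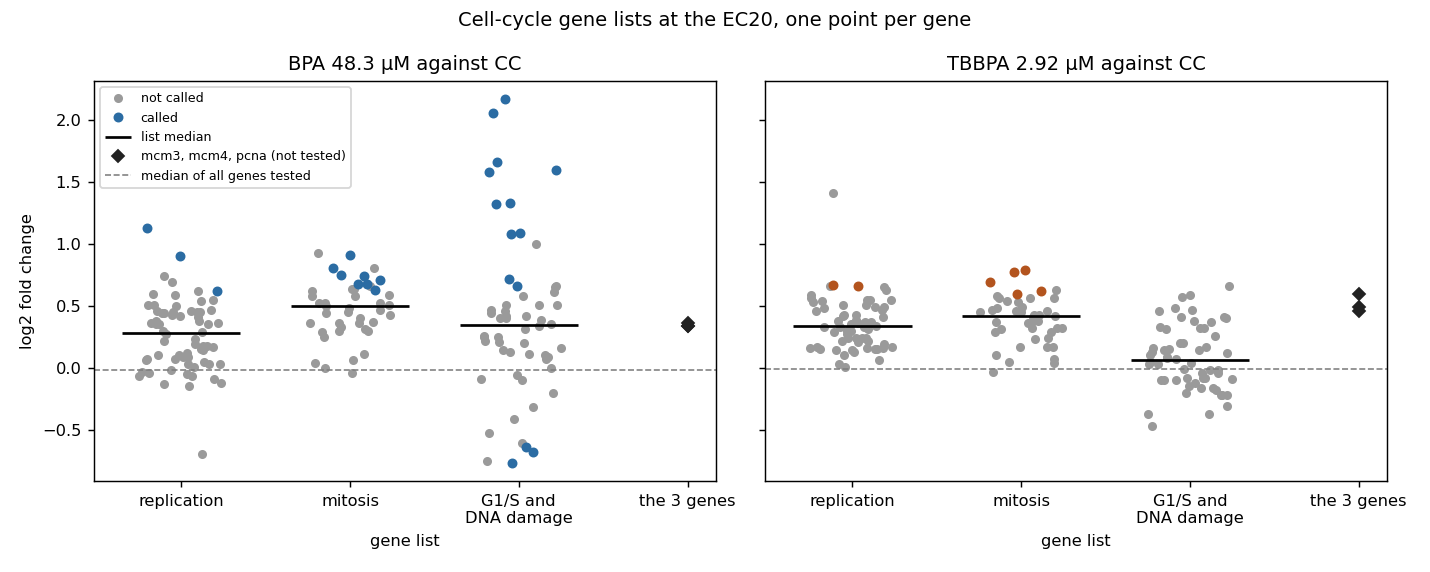
Fitted log2 fold change at the EC20 (y axis) of each gene in the replication, mitosis and G1/S and DNA damage lists and of mcm3, mcm4 and pcna, with DEGs in color, list medians as black bars and the median of all genes tested as a dashed line. The replication and mitosis medians are 0.28 and 0.50 for BPA and 0.33 and 0.42 for TBBPA, and the G1/S and DNA damage median is 0.35 for BPA and 0.06 for TBBPA.

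Of 43 genes of mitosis, the phase after replication, 8 rose at 48.3 µM BPA and 5 at 2.92 µM TBBPA, and none was called lower. At 48.3 µM BPA, 42 of 43 had a fitted change above 0 (median 0.50), and 8 were DEGs, all higher (7.07% of all genes were called higher). The largest rises were those of anln, a scaffold of the contractile ring (0.91 ± 0.17, limma adjusted p = 0.00229), the spindle motor kif11 (0.81 ± 0.17, adjusted p = 0.00485), the spindle protein tacc3 (0.75 ± 0.13, adjusted p = 0.00153), BIRC5 (ENSDARG00000075621) of the chromosomal passenger complex (0.74 ± 0.21, adjusted p = 0.0240) and cdc20, an activator of the anaphase-promoting complex (0.71 ± 0.21, adjusted p = 0.0327). The CC of tacc3 held 87.8, 81.8 and 96.5 normalized counts and its EC20 137, 166 and 147, and in these 5 genes the groups did not overlap. The count of 8 was 0 without replicate 2, 4 without replicate 1, 14 with edgeR and 15 without the library that stood apart. At 2.92 µM TBBPA, again 42 of 43 were above 0 (median 0.42), and 5 were DEGs, all higher, against 0.658% of all genes. These were the mitotic cyclin ccnb1 (0.79 ± 0.14, adjusted p = 0.00541), the spindle checkpoint genes bub1ba (0.77 ± 0.20, adjusted p = 0.0385) and mad2l1 (0.60 ± 0.16, adjusted p = 0.0405), the passenger kinase gene aurkb (0.69 ± 0.16, adjusted p = 0.0217) and cdc20 (0.62 ± 0.12, adjusted p = 0.0106). Of ccnb1 the CC held 76.1, 77.8 and 92.6 normalized counts and the EC20 147, 132 and 148. The count of 5 was 0 without replicate 1 or without replicate 3, 1 without replicate 2, and 2 or 3 under 5 other settings.

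The list of G1/S and DNA damage genes was mixed: products of some can hold cells out of S phase, and products of others, such as G1 cyclins, bring cells into it. No test compared this list with the replication list. At 48.3 µM BPA, 11 of 56 were DEGs that rose and 3 that fell (7.07% and 6.93% of all genes), and the median was 0.35. Of 26 G1/S control genes, 2 were DEGs that rose and 1 that fell (median 0.23). Of the 30 genes listed under p53 and DNA damage, 9 rose, the TNF receptor gene tnfrsf1b among them, and 2 fell (median 0.43). The largest rises were those of the growth arrest and stress genes sesn2 (2.17 ± 0.28, limma adjusted p = 0.000111), GADD45A (ENSDARG00000043581, 2.06 ± 0.28, adjusted p = 0.000175), 2 GADD45B genes (ENSDARG00000013576, 1.66 ± 0.20, adjusted p = 8.29e-05, and ENSDARG00000027744, 1.58 ± 0.20, adjusted p = 0.000114) and the TNF receptor gene tnfrsf1b (1.60 ± 0.47, adjusted p = 0.0280). The genes that fell were ddb2 (−0.77 ± 0.15, adjusted p = 0.00233) and xpc (−0.68 ± 0.11, adjusted p = 0.000737), which recognize damaged DNA for excision repair, and the cyclin-dependent kinase inhibitor cdkn1ca (−0.64 ± 0.19, adjusted p = 0.0336). The cyclin-dependent kinase inhibitor cdkn1a, named after its values were seen, was at 1.00 ± 0.33 (adjusted p = 0.0513). The G1 cyclin ccnd1, named likewise, rose from 707 ± 38.3 to 1164.9 ± 119.8 normalized counts (0.72 ± 0.11, adjusted p = 0.000407). At 2.92 µM TBBPA, limma, edgeR and DESeq2 each called 0 of 58, with 16 at an unadjusted p under 0.05 (19.8% of all genes), and the median was 0.06. At a limma adjusted p under 0.05 with any size of change, 2 of the 58 fell and 0 rose. Of all genes tested, 1.92% rose by this rule, and the share that fell is not given. There cdkn1a was at −0.09 ± 0.13, and 1 gene was a DEG with quantile normalization or without replicate 2 of 0.000292 µM.

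At the concentrations below the EC20, no replication gene was called. Limma, edgeR and DESeq2 each gave 0 of 66 at all 8 lower concentrations. From 0.00483 to 4.83 µM BPA, the genes of the list with an unadjusted p under 0.05 numbered 0, 1, 3 and 2, where 1.22%, 1.21%, 1.62% and 2.96% of all genes had one. From 0.000292 to 0.292 µM TBBPA they numbered 8, 5, 8 and 13, where 6.94%, 3.78%, 5.08% and 5.25% of all genes had one. Over all genes, limma called 0 at 7 of these concentrations and 5 genes lower (0.0272%) at 0.000292 µM TBBPA. In the TBBPA series the list medians were 0.08, 0.06, −0.07 and −0.12 from the lowest concentration up. The genes above 0 numbered 47, 40, 19 and 11 of 66, against 49.5%, 51%, 50.4% and 49.9% of all genes. Against the CC of the same replicate, the medians fell at every step in replicate 1 only (0.12, 0.01, −0.08 and −0.23). Replicate 2 gave −0.02, 0.03, −0.13 and −0.22, and replicate 3 gave 0.19, 0.08, −0.01 and 0.08. Without replicate 2 of 0.000292 µM, the fitted median there was 0.12, with 51 of 66 above 0. The mitosis list at 0.292 µM TBBPA had 2 of 43 above 0, with a median of −0.21. In the BPA series the replication medians were −0.03, −0.05, −0.09 and 0.06, with 30, 23, 19 and 42 of 66 above 0, against 50.1%, 48.8%, 50.6% and 46% of all genes. Without the library that stood apart, the direction at 4.83 µM turned, with a median of −0.04 and 28 of 66 above 0. The mitosis list at 0.483 µM had 5 of 43 above 0 (median −0.18). This rested mostly on replicate 1. Against the CC of the same replicate, the mitosis medians in replicates 1, 2 and 3 were −0.41, 0.04 and −0.05. At 0.292 µM TBBPA they were −0.31, −0.25 and −0.05. The lowest group means of pcna and mcm4 were found at the same concentrations, 0.483 µM BPA and 0.292 µM TBBPA. Those of mcm3 were found elsewhere, at 0.0483 µM BPA and 0.0292 µM TBBPA. None of these dips was tested as a set.

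Library by library, the medians depended on the replicate. Against the CC of the same replicate, the replication list of replicate 1 was at −0.27, −0.24, −0.22 and −0.13 from 0.00483 to 4.83 µM BPA. Replicate 2 lay at 0.08, −0.05, −0.00 and −0.00, and replicate 3 at 0.14, 0.09, −0.05 and 0.42, of which 0.42 is the library that stood apart. At 48.3 µM BPA the replicates were at 0.16, 0.22 and 0.41, and at 2.92 µM TBBPA at 0.39, 0.27 and 0.38, so each of the 6 EC20 libraries was above its own CC. At 0.292 µM TBBPA, replicates 1 and 2 were at −0.23 and −0.22 and replicate 3 at 0.08, the split seen for pcna. It was not seen for mcm3 (0.14, 0.04 and 0.08) or mcm4 (−0.13, −0.12 and −0.09).

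**Figure D5:**
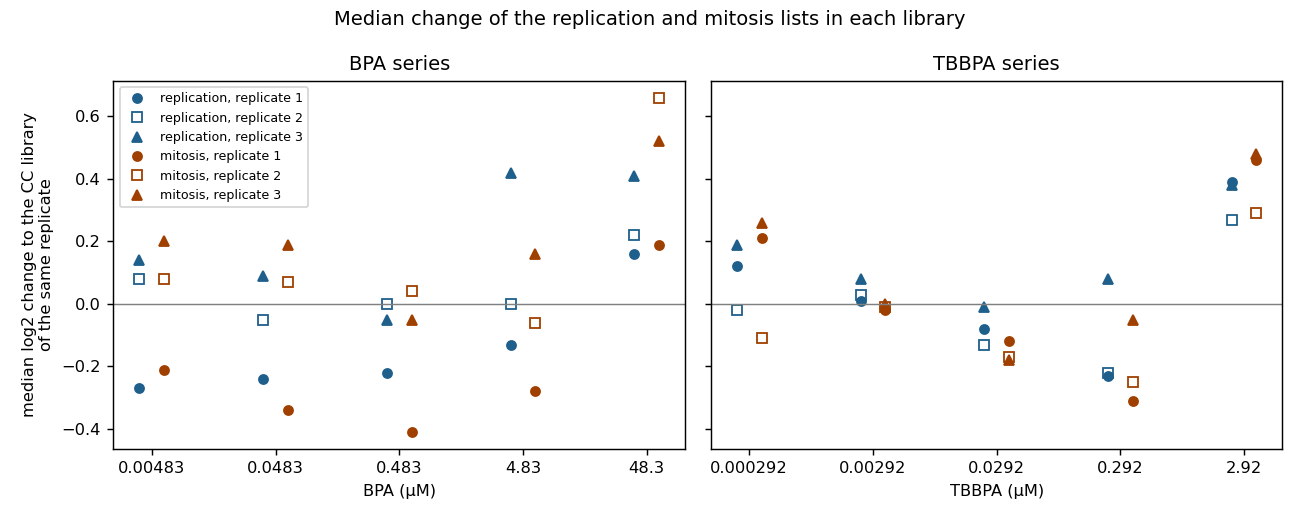
Median log2 change of the 66 replication and 43 mitosis genes in each exposed library against the CC library of the same replicate (y axis), by concentration in µM (x axis), with 1 symbol per replicate. All EC20 points lie above 0, from 0.16 to 0.66 for BPA and from 0.27 to 0.48 for TBBPA, and below the EC20 replicate 1 of the BPA series lies under 0 for both lists.

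Marker levels of cell types in which division goes on at this age, and of other cells of the larva, are given beside those of the 3 genes. For neural and retinal stem or progenitor cells at 2.92 µM TBBPA, 17 of 20 markers had a fitted change above 0 (48.9% of all genes) and none was called. Above the CC in every library were 3 of the 20 (10.5% of all genes). The summed level was 12425.7 to 14422.4 normalized counts against 11254.1 to 11762.1 in the CC, with no marker at 0 in all 3 libraries. Summed levels weigh abundant markers most. The summed level of 18 neuron markers was 44037.4 to 48626.1 against 48876.7 to 50050.4, and 7 of 18 had a fitted change above 0. Of the 18, 0 were called (limma, edgeR and DESeq2), with 3 at an unadjusted p under 0.05 (limma, 19.8% of all genes). At 48.3 µM BPA the summed level of the stem and progenitor markers overlapped, at 8898.1 to 10889.3 against 9582.4 to 10660.6. Among these, nes rose (2.15 ± 0.22, adjusted p = 1.74e-05) while gfap (−0.93 ± 0.15, adjusted p = 0.000520) and rx2 (−0.92 ± 0.21, adjusted p = 0.00856) fell. Neuron markers fell in the same larvae: 12 of 18 were called lower, beside 6.93% of all genes, led by nefmb (−1.13 ± 0.16), map1b (−1.09 ± 0.30) and SNAP25 (ENSDARG00000020609, −0.99 ± 0.13), and their sum was 23745.3 to 31298.0 against 40332.3 to 46538.6. Their part in the levels of mcm3, mcm4 and pcna was not tested.

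Of the other tissues at 48.3 µM BPA, called markers were alas2 (2.56 ± 0.57) and SPI1 (ENSDARG00000000767, 1.02 ± 0.31) of blood, fabp10a (−2.07 ± 0.46), fabp2 (−1.97 ± 0.45) and fabp6 (−1.72 ± 0.18) of liver and gut, acta1b (−1.27 ± 0.18) of muscle, and krt17 (−1.46 ± 0.30), cldne (0.99 ± 0.23) and epcam (0.82 ± 0.13) of skin. The lists as wholes were mixed. Fitted changes above 0 numbered 3 of 8 tested blood markers, 9 of 17 of gut and liver, 2 of 10 of muscle and 7 of 11 of skin. The list medians were −0.17, 0.02, −0.13 and 0.37 in that order. At 2.92 µM TBBPA, only tfa of liver (1.27 ± 0.31) was called. The lymphocyte marker lck was listed at 0 in all 3 libraries, but its mean was below 10 in both series and it was not tested. Of the 17 blood markers, 8 were tested. Summed levels of the blood, gut and liver, muscle and skin lists overlapped between the CC and the EC20 in both series.

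The levels of the 3 genes varied together across libraries. Over the 18 TBBPA libraries, Pearson's r was 0.88 between mcm3 and mcm4, 0.90 between mcm3 and pcna and 0.93 between mcm4 and pcna. In the BPA series r was 0.85, 0.55 and 0.63, and without the library that stood apart 0.85, 0.61 and 0.78 over 17 libraries. These values describe libraries that share their groups, clutches and normalization, and carry no p. Of the 10 genes most like the mean profile of the 3 in the TBBPA series, mcm2 (r = 0.92), MCM6 (0.92) and rrm1 (0.92) belonged to the replication list and cenpe (0.93), a kinetochore motor gene, to the mitosis list. The others were rbbp4 (0.94), a histone chaperone subunit that also serves chromatin assembly at the replication fork, calr3a (0.94), phgdh (0.92) and psat1 (0.92) of serine synthesis, lmnb2 (0.92) of the nuclear lamina and g3bp1 (0.92). In the BPA series, 9 of the 10 were eif4a1a (0.92), HNRNPAB (ENSDARG00000099865, 0.92), ddx5 (0.91), fbl (0.90), banf1 (0.90), zgc:86764 (0.90), rrm1 (0.90), nasp (0.89), a histone chaperone gene, and carm1 (0.89), so that rrm1 was in both. Without the library that stood apart, 7 of the 10 remained. Over all of the replication list the median r was 0.57 for BPA and 0.70 for TBBPA, and over the mitosis list 0.60 and 0.79, against −0.04 and −0.02 over all genes. Among the 100 genes most like the 3, replication genes numbered 7 and 9 and mitosis genes 2 and 11. G1/S and DNA damage genes numbered 0 and 2, with a median r of 0.26 and 0.23. The genes ranked numbered 17245 for BPA and 18397 for TBBPA. Of these, 66 were replication genes and 43 mitosis genes in each series, and 56 and 58 were G1/S and DNA damage genes.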

How the data were processed

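Per chemical, the authors deposited 1 table of normalized values (a signal that is never negative), made by dividing gene counts by each library's DESeq2 size factor. The counts came from STAR in quant mode (GRCz11), after adapter trimming by cutadapt. Tool versions are not given in the sources used here. Values came out as whole reads, within 0.01 of a read, for 100% of genes, and 2 libraries whose step lies too near 1 to be told from rounding were read the same way. Depth is the sum of these reads, and counts of a gene carry counting error besides the spread between clutches. No column was left without a sample. The 36 pairs of libraries of 1 group differed by more than sampling noise (chi-square divided by its degrees of freedom, 2.95 to 29.0).

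The tests used limma 3.58.1 in R 4.3.3 (lmFit, eBayes with trend) on values transformed as log2(value + 1), in 1 fit per chemical (18 libraries), for genes with a mean of at least 10, with group and replicate as terms, as in the authors' design, and Benjamini-Hochberg adjustment over all genes tested. A DEG had an adjusted p under 0.05 and at least 1.5-fold change. Fold changes are on the log2(value + 1) scale. The replicates came from different clutches by the paper, so replicate numbers were taken as pairs. Across genes, deviations from group means correlated at a median of 0.115 (BPA) and 0.166 (TBBPA) for equal numbers and −0.0567 and −0.0790 for others. Between CC and EC20, replicates 1, 2 and 3 gave −0.0436, 0.111 and 0.210 for BPA and 0.169, 0.0856 and 0.213 for TBBPA.

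The alternatives were a pseudocount of 10, no filter, no replicate block, only the 6 libraries compared, quantile normalization, edgeR 4.0.16 and DESeq2 1.42.0 on the recovered reads, and leaving out each replicate number or 1 divergent library. Scripts were tested on simulated data. The 3 genes and the gene lists were chosen with earlier results of these data known. By rule, the text named the 3 genes, the other MCM2-7 subunits, up to 5 DEGs per direction, list and EC20, up to 3 called markers per cell type and the 10 genes most like the 3 in each series, of which 1 is not reported here. Gene names came from the paper's supplement and from a RefSeq-based table of another assembly, used for names only. It matched 24011 genes of the BPA and 24665 of the TBBPA table. Capital symbols are the table's own. A listed symbol ending in a copy letter without a match was matched to all genes that carry the symbol without it. Symbols without a match were claspn, kif4, incenp, her6, her9, mylpfa, mylz3 and krtt1c19e. Figures were drawn with matplotlib 3.10.9 in Python 3.11.15, numpy 2.4.6 and pandas 2.3.3.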

Additional observations from a re-analysis of the deposited data

Results flagged for a closer look

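At the EC20, 3 of the genes named above moved one way in every replicate pair of the BPA series and the opposite way in every pair of the TBBPA series, at different concentrations. The difference between the chemicals was not tested. The GADD45B gene ENSDARG00000027744 was at 1.58 on the log2 scale for 48.3 µM BPA and at −0.22 for 2.92 µM TBBPA. The neuron marker map1b (ENSDARG00000060434) was at −1.09 and 0.24, and the skin keratin gene krt17 (ENSDARG00000094041) at −1.46 and 0.53. None of mcm3, mcm4 and pcna moved in opposite ways.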

How the results depend on the processing

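At the EC20 the fitted changes of mcm3, mcm4 and pcna kept their direction under all 11 alternatives, but much of this was fixed beforehand. All 3 replicate pairs were above 0 for each gene, so leaving out a replicate number could not turn the direction. No filter, no replicate block, only the 6 libraries compared and no divergent library give the same fitted change by design. For BPA the changes of mcm3, mcm4 and pcna ranged from 0.27 to 0.45, 0.33 to 0.40 and 0.23 to 0.48. For TBBPA they ranged from 0.58 to 0.61, 0.42 to 0.55 and 0.42 to 0.51. Below the EC20, at 0.00483 µM BPA, mcm3 ranged from −0.19 to 0.02 and mcm4 from −0.10 to 0.35. The counts of DEGs depended on the processing. For BPA, the replication count of 3 was 1 with no filter on low values and 0 to 2 when a replicate number was left out. The mitosis count of 8 was 14 with edgeR and 15 without replicate 3 of 4.83 µM, and 0 to 6 when a replicate number was left out. The count over all genes, 2414, was 1169 to 2399 when a replicate number was left out and 3559 without replicate 3 of 4.83 µM. For TBBPA, without the replicate block the replication count of 2 fell to 1, the mitosis count of 5 to 2 and the count over all genes from 158 to 69. With DESeq2 these were 1, 2 and 104. The mitosis count was 3 with a pseudocount of 10, with no filter or with only the 6 libraries compared. Leaving out a replicate number gave 0 to 1 replication genes, 0 to 1 mitosis genes and 19 to 114 of all genes, and the count over all genes was 225 without replicate 2 of 0.000292 µM. The G1/S and DNA damage count of 0 became 1 with quantile normalization and without replicate 2 of 0.000292 µM. The cause was not tested, beyond the fewer libraries where some were left out. Of 242 comparisons of these results with an alternative, 28 moved. The other 214 kept their direction and stayed within 1.5 times the count or 1 SD of the value. Among the 214 were replication counts below the EC20, which were 0 under every setting, and changes of the 3 genes that the design leaves the same. This share is therefore no measure of how stable the counts at the EC20 were. Of 781 comparisons for single named genes and for the 3 genes below the EC20, 77 lost their call. No DEG turned in direction, but the fitted change turned in 11 for the 3 genes below the EC20 and in 3 for mcm2 and mcm7, all when a replicate number was left out. The BPA correlations without the library that stood apart were chosen after seeing the data. With 3 libraries per group and 64 to 365 reads on mcm3 in the BPA series, precision was limited, and the SE was 0.17 for mcm3 and 0.15 for mcm4 and pcna there. All groups share 1 estimate of the spread. Without replicate 3 of 4.83 µM BPA, the SE at 48.3 µM was 0.16 for mcm3, 0.15 for mcm4 and 0.11 for pcna.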
